A study of Mus musculus with 35 samples.

Results

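The effect of a weight-stable tumor on open chromatin in hepatocyte nuclei was compared between the NC26 and MC38 cohorts. The quantity was the difference of effects on the log2 scale, NC26 tumor minus NC26 PBS, minus MC38 tumor minus MC38 PBS. A positive value means a larger rise or a smaller fall in NC26. The comparison used 16 of the 35 libraries, with 4 animals in each of 4 groups, and all 177251 regions that passed a filter on low counts, of 177904 in the table. Every animal carried CAG-Sun1/sfGFP and Albumin-Cre, controls included. This transgene pair puts a fluorescent tag on the nuclear envelope of cells in which the albumin promoter has driven Cre, and tagged nuclei were then captured on beads. The NC26 cohort was BALB/c, with PBS controls and mice implanted with NC26 tumor cells. The MC38 cohort was C57BL/6N, with PBS controls and mice implanted with MC38, a mouse colon carcinoma line. The design text names both tumors as giving weight-stable cancer and gives livers collected at ZT 9, in a sentence that names the cachexia animals of the other cohorts. The labels used here state neither age nor tumor burden. Strain went with tumor line, so tumor and strain cannot be told apart in any difference of effects.

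ATAC-seq marks DNA that the Tn5 transposase can reach, mostly active promoters and enhancers. In liver, tumors elsewhere in the body can act through circulating cytokines, glucocorticoids and altered feeding. Interleukin-6 acts through STAT3 to turn on acute phase genes in hepatocytes, and glucocorticoids, zinc and cytokines induce the metallothioneins. Values below are scaled tags, that is tags in a 400 bp window per 10 M tags of the library, after TMM scaling, with 0.5 tag for every read end. A region carries the name of the gene with the nearest start site, which need not be the gene it acts on. A lower value can stem from fewer nuclei with an open site or from less access in each nucleus, and these cannot be told apart.

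NC26 tumor replicate 1 was shallow, at 3.47 M tags, and the other libraries had 11.3 to 20.3 M. Replicates 1 and 2 of each group carried library numbers of an earlier series (A) and replicates 3 and 4 of a later one (B). The label of hepatocyte nuclei was checked with marker promoters. Mean promoter values of hepatocyte genes were 84.1 to 125 scaled tags per region, against 1.78 to 6.52 for macrophage genes, 11.8 to 22.1 for neutrophil genes and 6.49 to 12.5 for endothelial genes. Stellate cell promoters had 7.94 to 17.7 and cholangiocyte promoters 11.6 to 18.8, and no lymphocyte marker had a region at its promoter. Of 400 regions near markers of the 6 other cell types, 0 passed an adjusted p of 0.05 in any of the 3 comparisons (limma, Benjamini-Hochberg), with 23 for the difference (5.75%, against 6.66% of all regions), 38 in NC26 (9.5%, against 10.4%) and 24 in MC38 (6%, against 6.31%) at unadjusted p under 0.05. By edgeR 0 passed, and by DESeq2 1 in MC38.

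The promoters of Mt2, Fos and Irf1 rose in NC26 and did not pass the threshold in MC38 or for the difference. Mt2 encodes a metallothionein that binds zinc and copper, Fos an AP-1 transcription factor induced within minutes of a stimulus, and Irf1 an interferon-induced transcription factor. The 250 bases before each start site are shown because these promoters carry the metallothionein and signaling results, from RefSeq on GRCm38.p6 and on the + strand. The Mt2 stretch was chr8:94172368-94172617, Fos chr12:85473640-85473889 and Irf1 chr11:53769764-53770013. Capitals mark matches, on either strand, to a loose metal response element pattern (TGCNCNC), a STAT site (TTCNNNGAA) and an AP-1 site (TGANTCA), and no 2 matches overlapped. N is any base, so TGCNCNC also takes letters that a stricter metal response core would leave out.
Mt2: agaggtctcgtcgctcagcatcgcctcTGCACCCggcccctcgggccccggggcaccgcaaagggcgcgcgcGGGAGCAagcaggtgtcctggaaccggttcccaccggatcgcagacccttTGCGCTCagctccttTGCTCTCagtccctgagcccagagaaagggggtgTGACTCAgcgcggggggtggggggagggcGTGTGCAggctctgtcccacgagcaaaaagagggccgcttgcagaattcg
Fos: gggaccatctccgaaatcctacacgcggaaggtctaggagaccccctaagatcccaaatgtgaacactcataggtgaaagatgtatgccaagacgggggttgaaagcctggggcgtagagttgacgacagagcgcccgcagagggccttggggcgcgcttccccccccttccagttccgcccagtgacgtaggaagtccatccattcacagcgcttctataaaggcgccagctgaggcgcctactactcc
Irf1: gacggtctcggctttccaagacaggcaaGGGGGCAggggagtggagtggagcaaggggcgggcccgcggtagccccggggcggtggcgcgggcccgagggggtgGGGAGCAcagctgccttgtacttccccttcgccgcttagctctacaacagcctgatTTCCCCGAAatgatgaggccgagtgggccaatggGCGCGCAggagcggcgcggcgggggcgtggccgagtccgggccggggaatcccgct
The Mt2 stretch held 5 matches to the loose metal response pattern and 1 to the AP-1 site. The measured Mt2 region starts at 94172469, inside the stretch, and held 3 of these 5 and the AP-1 match. Of 32851 RefSeq promoters, 44.4% held at least 1 match to the loose metal response pattern in the same window and 0.344% held 5 or more. An AP-1 match was held by 6.7%. The Irf1 stretch held 3 matches to the loose metal response pattern and 1 STAT match, and 7.0% of promoters held a STAT match. The Fos stretch held no match to these 3 motifs. Only 114 of its bases lay in the measured Fos region (85473353 to 85473753), and the other bases of that region were not searched. A match describes letters only.

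One region differed between the cohorts at an adjusted p of 0.05 or less. It lies on chromosome 13 from 119713155 to 119713555 (mm10), in intron 3 of 3 of Nim1k, a kinase gene, and 23004 bp from the start of Hmgcs1, which encodes the cytosolic synthase that makes HMG-CoA for cholesterol synthesis. In NC26 controls its 4 libraries had 16, 13.9, 25.5 and 15.5 scaled tags, and in NC26 tumor mice 8.02, 6.34, 15.1 and 15.7. In MC38 controls it had 9.38, 3.25, 5.07 and 7.72, and in MC38 tumor mice 17.0, 19.7, 17.9 and 25.2. All 4 MC38 tumor libraries lay above all 4 of their controls, while the NC26 groups overlapped. The MC38 effect was 1.58 ± 0.26 log2 (SE, limma, adjusted p = 0.00628) and the NC26 effect -0.66 ± 0.26 (adjusted p = 0.354). The difference was -2.23, with a 95% interval of -2.98 to -1.49 (limma with Benjamini-Hochberg adjustment, adjusted p = 0.0442), and was -2.51 in library series A and -1.96 in series B. The region was shallow, with 6 to 86 read ends per library. Its sign was the same in all 33 alternatives, which reuse these libraries, but it passed the threshold in only 12 of them. It did not pass with edgeR's quasi-likelihood test (adjusted p = 0.103) or when 1 of 10 libraries was left out (limma, adjusted p from 0.0529 to 0.216). These were NC26 PBS replicates 1, 2 and 3, NC26 tumor replicates 1 and 3, MC38 PBS replicates 2 and 3 and MC38 tumor replicates 1, 2 and 4. The MC38 effect missed the threshold without MC38 PBS replicate 2 or MC38 tumor replicate 2 or 4 (adjusted p from 0.0565 to 0.0606, limma).

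Across all regions the difference passed for 0 with a larger value in NC26 and 1 with a larger value in MC38, a background of 0.000564% of regions. At an unadjusted p under 0.05 there were 3783 (2.13%) and 8017 (4.52%), together 6.66% of regions. With edgeR's quasi-likelihood test on the recovered read ends 0 regions passed (8813 at unadjusted p under 0.05), and with DESeq2 19 passed, 6 larger in NC26 and 13 larger in MC38. The median 95% interval, before any adjustment for the number of regions, reached 0.847 log2 to either side of the estimate. The adjusted test needs more than that, and differences near 2 log2, such as those of Nampt and Mt2 given below, did not pass. Within each cohort the tumor effect passed for more regions. In NC26 243 regions rose (0.137%) and 72 fell (0.0406%), together 0.178% of regions, at 199 and 71 nearest genes. In MC38 33 rose (0.0186%) and 1 fell (0.000564%), together 0.0192%. At unadjusted p under 0.05, 4.38% of regions were higher and 6.05% lower in NC26 (10.4% in all), and 4.42% higher and 1.9% lower in MC38 (6.31% in all). All 4 tumor libraries lay above all 4 controls in 1.88% of regions in NC26 and 2.07% in MC38, and below them in 1.84% and 1.33%. With library totals in place of TMM scaling, NC26 had 214 rises and 18 falls, and the median NC26 effect over all regions moved from -0.04 to 0.07 log2. The smaller number in MC38 is not by itself a difference between cohorts, and the test of that difference is the one above.

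The 11 other regions named, those with the lowest p for the difference in each direction among regions at or above the median level, did not pass and are given as values. On the NC26 side the first was 103794 bp upstream of Ccnd1, which encodes cyclin D1, a driver of entry into the cell cycle (chromosome 7, 145043519 to 145043919, intergenic). NC26 controls had 52.4, 48.6, 41.8 and 50.7 scaled tags and NC26 tumor mice 153, 109, 109 and 117. MC38 controls already had 130, 103, 98.5 and 112, and MC38 tumor mice 97.5, 117, 125 and 142. The NC26 groups did not overlap, and 3 of the 4 NC26 tumor libraries lay within the range of both MC38 groups, with replicate 1 above it. The NC26 effect passed (1.30 ± 0.15 log2, limma adjusted p = 6.18e-06, and in all 33 alternatives), the MC38 effect was 0.11 ± 0.15, and the difference was 1.19 (95% interval 0.76 to 1.62, adjusted p = 0.084).

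A region 36945 bp upstream of Tspan8, a tetraspanin membrane protein (chromosome 10, 115780139 to 115780539, intergenic) also rose in NC26. NC26 controls had 29.3, 36.1, 35.5 and 30.3 scaled tags, NC26 tumor mice 102, 64.4, 73.7 and 69.9, MC38 controls 106, 103, 79.5 and 81.0, and MC38 tumor mice 94.8, 92.3, 117 and 108. The NC26 controls lay below all other libraries. NC26 tumor replicates 2 to 4 still lay below all 8 MC38 libraries, and only the shallow replicate 1 lay within their range. The NC26 effect passed (1.20 ± 0.15 log2, adjusted p = 1.14e-05, limma), and the difference was 1.03 (0.61 to 1.46, adjusted p = 0.166), with 1.45 in series A and 0.62 in series B.

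Controls of the other 2 cohorts, which are not in these contrasts but shared the fit, its scaling and its estimate of spread, were read at the same sites. The Ccnd1 region had 54.2 ± 12.2 scaled tags (SD, n = 4) in C26 PBS mice, which are BALB/c, and 122 ± 20.3 (n = 3) in 8025 PBS mice, which are C57BL/6N. The Tspan8 region had 29.6 ± 5.24 and 107 ± 25.9 (n = 4 and 3). At both sites every C26 control lay below every 8025 control, as every NC26 control lay below every MC38 control. All C26 libraries were of series A and all 8025 libraries of series B, so strain and library series cannot be told apart in that pair, whereas NC26 and MC38 were balanced over both series.

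In the 4 other regions on the NC26 side the MC38 effect was negative, between -0.78 and -0.49 log2, and did not pass. They lie in an intron of Nav2 (a cytoskeletal protein of neurite growth), in an intron of Tmem51 nearest to Tmem51os1, and in introns of Slc35f3 and Slc6a6. Slc6a6 encodes the taurine transporter. Its region (chromosome 6, 91729202 to 91729602) had 35.9, 35.8, 31.8 and 32.1 scaled tags in NC26 controls and 69.6, 57.0, 42.8 and 48.3 with tumor, against 46.9, 36.9, 33.9 and 32 in MC38 controls and 23.1, 18.8, 20.1 and 22.8 with tumor. The groups overlapped in neither cohort and the effects had opposite signs, but neither passed (0.65, adjusted p = 0.264, and -0.78, adjusted p = 0.323, limma). The differences of the 4 regions were 1.34 for Nav2, 1.73 for Tmem51os1, 1.55 for Slc35f3 and 1.43 for Slc6a6, with adjusted p from 0.166 to 0.285. The Slc35f3 region rose in NC26 (1.06, adjusted p = 0.0463, limma), but missed the threshold when 1 of 6 libraries was left out (adjusted p from 0.0513 to 0.22), namely NC26 PBS replicates 1, 2 and 3, NC26 tumor replicates 1 and 4 and MC38 tumor replicate 3.

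On the MC38 side, the region 130892 bp upstream of Nampt (chromosome 12, 32689243 to 32689643, intergenic) had the largest of the 6 differences after that of Hmgcs1. Nampt encodes the enzyme that limits NAD synthesis from nicotinamide. It had 10.7, 7.53, 12.7 and 6.29 scaled tags in NC26 controls and 5.35, 7.39, 10.5 and 6.74 with tumor. In MC38 it had 4.17, 6.52, 8.87 and 8.31 in controls and 18.7, 20.9, 28.8 and 36.8 with tumor. The 4 MC38 tumor libraries stood above the other 12. The MC38 effect passed (1.77 ± 0.27, limma adjusted p = 0.00172), the NC26 effect was -0.27 ± 0.27, and the difference was -2.04 (-2.81 to -1.27, adjusted p = 0.084).

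A region 4039 bp upstream of Serpina3a, of the serine protease inhibitor cluster that holds acute phase genes (chromosome 12, 104108485 to 104108885), had 20.9, 13.9, 16.4 and 22.6 scaled tags in NC26 controls and 10.7, 7.39, 13.4 and 11.2 with tumor. MC38 controls had 20.6, 26.1, 16.2 and 26.1 and MC38 tumor mice 38.7, 28.5, 37.2 and 50.3. Here too the groups of each cohort did not overlap and the signs were opposite, with effects of -0.74 and 0.77 that did not pass and a difference of -1.51 (adjusted p = 0.211, limma). The region in an intron of Gcnt7, a glycosyltransferase gene, fell in NC26 (-0.62, adjusted p = 0.0483, limma) with a difference of -1.03, but the fall passed in only 12 of 33 alternatives and missed the threshold when 1 of 9 libraries was left out (adjusted p from 0.0528 to 0.156), namely all 4 NC26 PBS replicates, NC26 tumor replicates 1, 2 and 4 and MC38 tumor replicates 3 and 4. The region upstream of Clvs1, a clathrin vesicle protein, rose in MC38 (1.32, adjusted p = 0.0137) with a difference of -1.65, and missed the threshold without MC38 PBS replicate 2 or 4 or MC38 tumor replicate 4 (adjusted p from 0.0522 to 0.103). The region downstream of the start of Tigd4 had a difference of -1.62 with no effect past the threshold in either cohort. Each of the 12 regions kept the sign of its difference in series A, in series B and in all 33 alternatives. The regions were chosen by this difference in these same libraries, so the kept signs are not separate support.

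**Figure D1:**
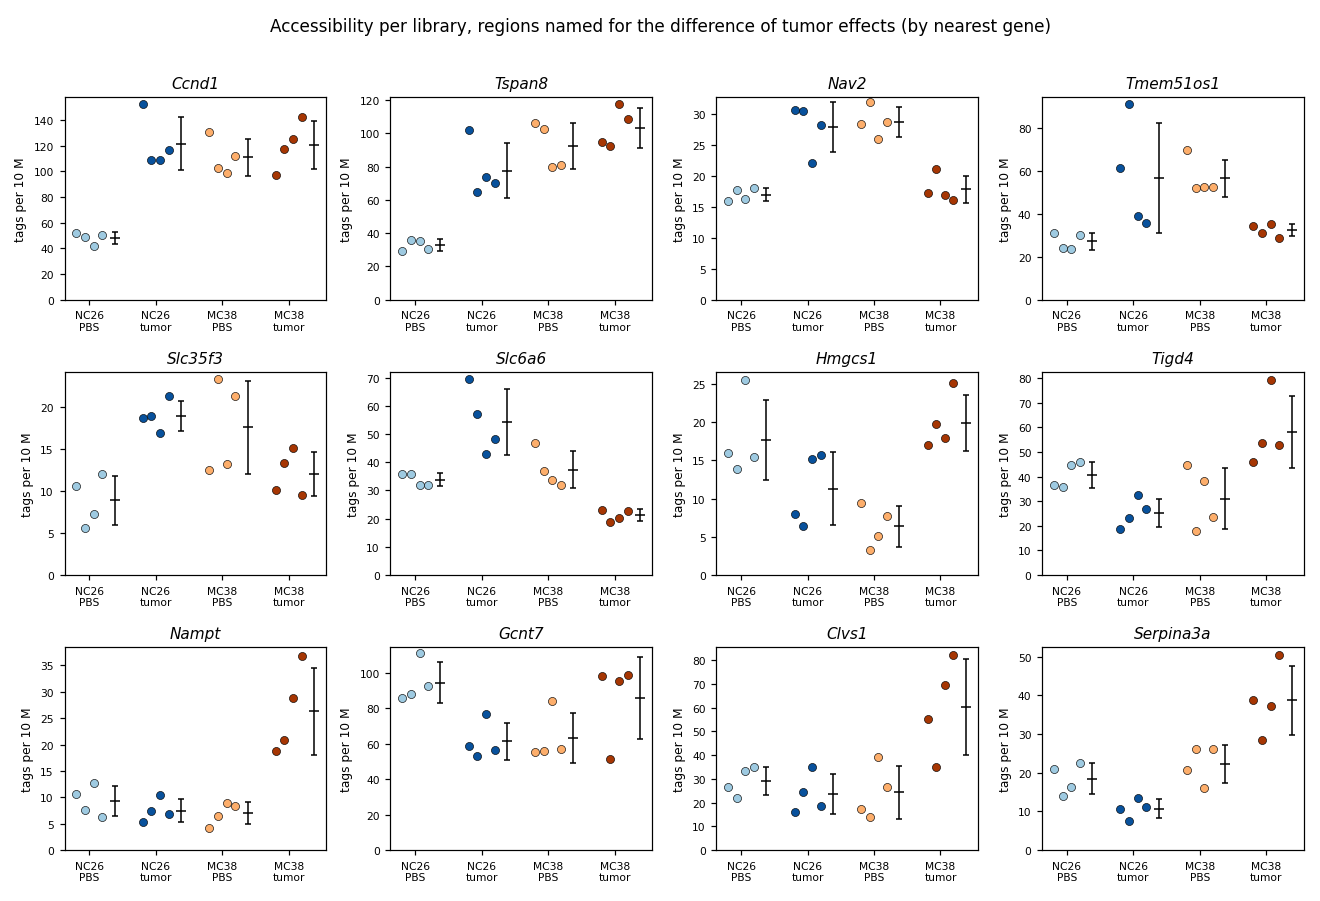
Scaled tags per 10 M in the 16 libraries (points, replicates 1 to 4 from left to right within a group; axes start at 0) with mean and SD at the right of each group, for the 12 regions named for the difference of effects. In Ccnd1 and Tspan8 the 4 NC26 controls lie below all other libraries (in Tspan8 3 of the 4 NC26 tumor libraries also lie below all MC38 libraries), and in Nampt the 4 MC38 tumor libraries lie above all others.

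**Figure D2:**
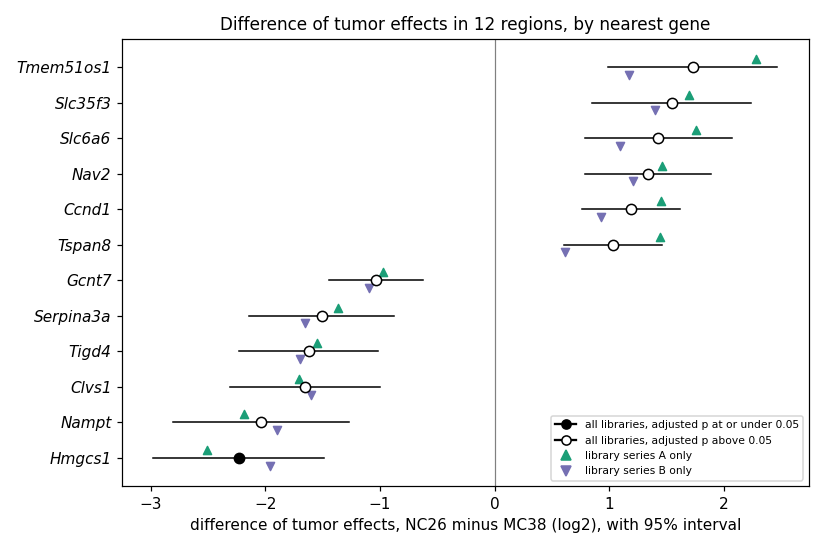
Difference of tumor effects (log2, NC26 minus MC38) with its 95% interval for the same 12 regions, and the estimate within each library series (triangles). The Hmgcs1 region at -2.23 is the only filled point, that is the only one with an adjusted p at or under 0.05.

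The regions that rose in NC26 had mostly positive effects in MC38 as well. The NC26 and MC38 contrasts share no library. Of the 243 regions that rose in NC26, 233 (95.9%) had a positive MC38 effect, against 52.7% of all regions. In 132 (54.3%) that positive effect had an unadjusted p under 0.05 (limma), against 4.42% of all regions. The median level of the 243 regions was 24.9 scaled tags, against 9.98 over all regions, and no set of like level was compared. Their median effect was 1.18 log2 in NC26, where they were chosen, and 0.50 in MC38. Relative to the mean of the MC38 controls, the median over these regions was 0.29, 0.61, 0.57 and 0.53 in the 4 MC38 tumor libraries, all above 0. Without NC26 tumor replicate 1, 70 regions rose in NC26 and 69 of them (98.6%) had a positive MC38 effect, with a median of 0.53. The 72 regions that fell in NC26 had no such counterpart, with a negative MC38 effect in 32 (44.4%, against 47.3% of all regions) and a median of 0.02. In NC26 tumor replicate 1, the shallow library, their median was -2.41, against -1.27, -0.84 and -1.01 in replicates 2 to 4, and 7 regions fell without it. Of the 33 regions that rose in MC38, 22 (66.7%) had a positive NC26 effect, against 45.1% of all regions, with a median of 0.16. Over all regions the 2 effects correlated weakly (Pearson r = 0.097, Spearman rho = 0.085, across 177251 regions, which are not independent replicates).

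The 5 regions that rose in both cohorts lay near 4 genes. With only the 16 libraries of the 2 cohorts in the fit, 0 regions passed in MC38 (limma, 8500 at unadjusted p under 0.05) and so 0 in both. Of the 5, 2 overlapping windows were in intron 2 of 7 of Prune1, a phosphodiesterase gene, and had effects of 1.71 and 1.43 in NC26 and 1.75 and 1.84 in MC38. In the window from 95267959 to 95268359 on chromosome 3, NC26 controls had 9.77, 9.04, 13.6 and 16 scaled tags, NC26 tumor mice 28.1, 26.9, 26.8 and 62.3, MC38 controls 29.7, 9.23, 13.6 and 15.1, and MC38 tumor mice 40.1, 64.5, 74.5 and 58.4. The groups of each cohort did not overlap. The others were 100439 bp upstream of Ptpn1, which encodes a phosphatase that damps insulin receptor signaling (1.22 in NC26, 1.44 in MC38), in intron 1 of 13 of Iqsec1 (1.28 and 1.27) and near the predicted gene Gm19510 (1.20 and 1.49). Their differences lay between -0.41 and 0.01, and the 95% intervals together ran from -1.09 to 0.70, so the intervals include 0 and also sizable differences.

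**Figure D3:**
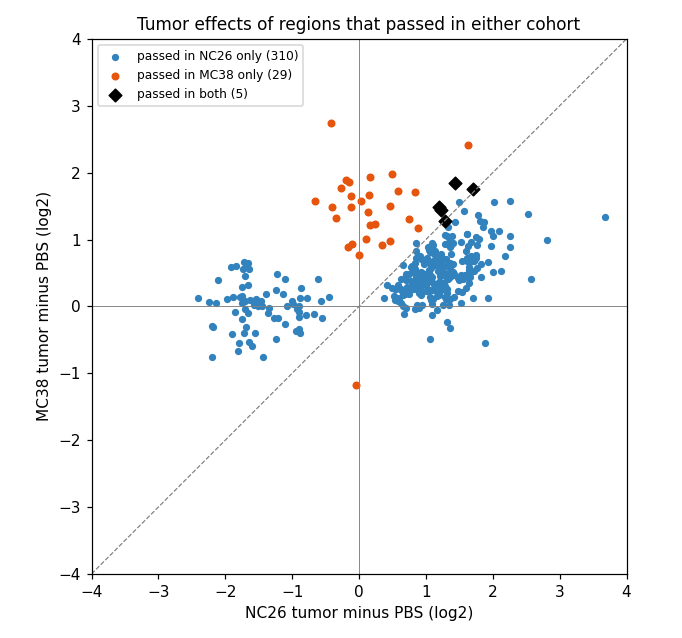
Tumor effect in NC26 (horizontal) and in MC38 (vertical), both log2, for regions that passed in either cohort. Of the NC26 rises at the right, 233 of 243 lie above the horizontal zero line and 237 lie below the dashed line of equal effects, while the NC26 falls at the left scatter around zero in MC38. Points were chosen by their own axis.

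The NC26 rises also differed between control groups. Their median control gap was -0.50 log2 (NC26 minus MC38), against 0.01 over all regions, and 211 of 243 (86.8%) were lower in NC26 controls, against 48.8% of all regions. The values of these controls entered the contrast that chose the regions. In C26 against 8025 controls, which are not in that contrast but shared the fit, the median gap was -0.55 and 209 (86.0%) were lower in C26, against 50.3% of all regions. All C26 libraries were of series A and all 8025 libraries of series B, so strain and series cannot be told apart in this pair. With tumor, the median gap between NC26 and MC38 was 0.10. The NC26 tumor values also entered the contrast that chose the regions, so an upward move from the control gap was built into the choice. The NC26 falls had gaps of 0.30 in their own controls and 0.04 in C26 against 8025. By position, 6.58% of the NC26 rises and 0 of the 72 NC26 falls were promoters, against 12.2% of all regions tested, by the annotation in the table. By distance, 7.82% of the rises and 6 of the 72 falls (8.33%) lay within 1 kb of a start site, against 18.5% of all regions. At unadjusted p under 0.05, 12.0% of the 3783 regions with the larger value in NC26 and 5.90% of the 8017 with the larger value in MC38 were promoters.

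Among NC26 rises at or above the median level of all regions, the Mt2 promoter had the largest effect (chromosome 8, 94172469 to 94172869). It had 7.10, 7.91, 6.36 and 9.16 scaled tags in NC26 controls and 99.0, 35.4, 74.3 and 23.9 with tumor. MC38 controls had 25.5, 21.7, 57.6 and 35.9 and MC38 tumor mice 37.0, 37.4, 76.5 and 35.3. The NC26 groups were far apart, while the MC38 groups overlapped and the MC38 controls lay above the NC26 controls. The effect was 2.57 ± 0.39 in NC26 (limma adjusted p = 0.00236) and 0.41 ± 0.39 in MC38, and the difference was 2.16 (1.03 to 3.29, adjusted p = 0.505), with 2.19 in series A and 2.13 in series B. DESeq2 alone among the alternatives called the difference, at 2.51 (adjusted p = 0.0443), and in series B alone the NC26 effect was 2.33 and missed the threshold (limma adjusted p = 0.367).

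The promoter of the neighboring Mt1, the other main liver metallothionein, had 39.9, 58.0, 56.4 and 78.7 in NC26 controls, 272, 160, 185 and 101 with tumor, 117, 122, 253 and 205 in MC38 controls and 259, 189, 224 and 209 in MC38 tumor mice. Its effect was 1.56 ± 0.28 in NC26 (adjusted p = 0.0132) and 0.41 ± 0.28 in MC38, with a difference of 1.15 (0.35 to 1.96, adjusted p = 0.647, limma). Without NC26 tumor replicate 1 its NC26 effect was 1.28 (limma adjusted p = 0.0957), and without NC26 PBS replicate 1 it was 1.41 (adjusted p = 0.0701). The C26 and 8025 controls had 8.52 ± 4.15 and 17.7 ± 8.45 at Mt2, where they overlapped, and 66.7 ± 30.7 and 131 ± 13.8 at Mt1, where they did not (SD, n = 4 and 3).

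The next 3 NC26 rises at such levels had positive effects in MC38 that did not pass. A region in the 3' UTR of Tcte2, nearest to Afdn, rose by 2.25 log2 in NC26 (adjusted p = 0.000608, limma), with 1.58 in MC38. A region in intron 1 of Fetub, a secreted fetuin, rose by 1.98 (adjusted p = 0.0356), with 1.13 in MC38, where replicate values with tumor ran from 12.6 to 113. A region upstream of Atg4c, an autophagy protease, rose by 2.0 (adjusted p = 0.000227), from 0.859 to 3.01 scaled tags in controls to 7.02 to 21.4 with tumor, and had 15.8 to 24.3 in MC38 controls. C26 controls had 5.49 ± 1.68 and 8025 controls 26.3 ± 7.70 there (SD, n = 4 and 3), with no overlap. The NC26 control values at Atg4c rested on 4, 8, 5 and 3 read ends. Its highest NC26 tumor value, that of the shallow replicate 1, rested on 16. The largest NC26 falls at such levels were near Eid2, Fgl1, Map9 and Tsku, at -1.81 to -1.34 log2, with MC38 effects of -0.66, -0.76, 0.19 and -0.02. Fgl1 encodes a liver-secreted fibrinogen-like protein. In NC26 tumor replicate 1 its region rested on 2 read ends, that of Map9 on 2, that of Tsku on 4 and that of Eid2 on 5. Without that library the falls near Fgl1, Map9 and Tsku and the Fetub rise did not pass (limma). They were also lost without NC26 PBS replicate 1, and some without other single libraries (Fetub PBS 2, 3 and 4 and tumor 3; Fgl1 PBS 4; Map9 PBS 2, 3 and 4 and tumor 4; Tsku PBS 2), at adjusted p from 0.0516 to 0.285.

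Of the MC38 rises, a region 19077 bp upstream of Abcg1, a cholesterol exporter, had 5.99, 19.6, 12.0 and 20.2 scaled tags in controls and 34.3, 66.1, 64.8 and 53.3 with tumor. NC26 values were 2.73 to 5.27 in controls and 1.75 to 9.36 with tumor. The effect was 1.94 ± 0.33 in MC38 (adjusted p = 0.00825, limma) and 0.16 ± 0.33 in NC26, and the difference was -1.77 (-2.71 to -0.84, adjusted p = 0.466). A region near Myadm rose by 1.71 in MC38 with 0.83 in NC26. The single MC38 fall, in exon 6 of 12 of Tnks1bp1, was -1.17 with -0.05 in NC26. Single libraries ended the Abcg1 call (MC38 PBS 1, tumor 2, 3 and 4), the Myadm call (PBS 2, tumor 2) and the Tnks1bp1 call (PBS 3 and 4, tumor 3 and 4), at adjusted p from 0.0533 to 0.125.

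A panel of 30 promoters of clock, acute phase, metabolic and stress genes was measured in full. The difference passed for 0 of them (4 at unadjusted p under 0.05, by limma; edgeR 0 and DESeq2 1, Mt2). In NC26 4 of the 30 promoters rose, where 0.137% of all regions rose, and in MC38 0. At unadjusted p under 0.05 there were 9 in NC26 and 4 in MC38. Of all regions, 10.4% had such a p in NC26, 6.31% in MC38 and 6.66% for the difference. The panel was chosen with earlier results known, so these shares do not test it. In MC38 edgeR and DESeq2 also called 0. The 4 promoters that rose in NC26 were Mt2, Mt1, Fos and Irf1. Fos had 66.1, 85.4, 65.5 and 71.6 scaled tags in NC26 controls, 143, 112, 112 and 119 with tumor, 100, 81.5, 97.2 and 107 in MC38 controls, and 111, 125, 121 and 101 with tumor. Its effect was 0.74 ± 0.12 in NC26 (adjusted p = 0.00114) and 0.24 ± 0.12 in MC38 (limma), with a difference of 0.50 (0.16 to 0.85, adjusted p = 0.63). Irf1 had 65.7, 62.5, 65.9 and 87.3 and then 112, 119, 110 and 115 in NC26, and 96.4, 76.0, 82.0 and 93.1 and then 102, 127, 144 and 109 in MC38. At Irf1 the tumor libraries lay above all controls of their own cohort, and the effects were 0.70 (adjusted p = 0.00114, limma) and 0.46 (adjusted p = 0.172), with a difference of 0.24 (-0.09 to 0.57).

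Of the other acute phase promoters, 3 are given here, each with an interval on the difference that included 0. Itih3, an inter-alpha-trypsin inhibitor heavy chain, had effects of 0.67 in NC26 and 0.44 in MC38 and Lcn2, an iron-siderophore binding protein, 0.89 and 0.49. All 4 effects missed the threshold after adjustment, and the differences were 0.22 (-0.22 to 0.67) and 0.39 (-0.22 to 1.01). Saa1, the serum amyloid A1 gene, had 0.32 and 0.35 with a wide interval on the difference (-1.24 to 1.18). The clock promoters Nr1d1, Nr1d2, Dbp, Per1, Per2 and Arntl had differences between -0.06 and 0.03, the narrowest interval being that of Nr1d2 (-0.16 to 0.16).

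**Figure D4:**
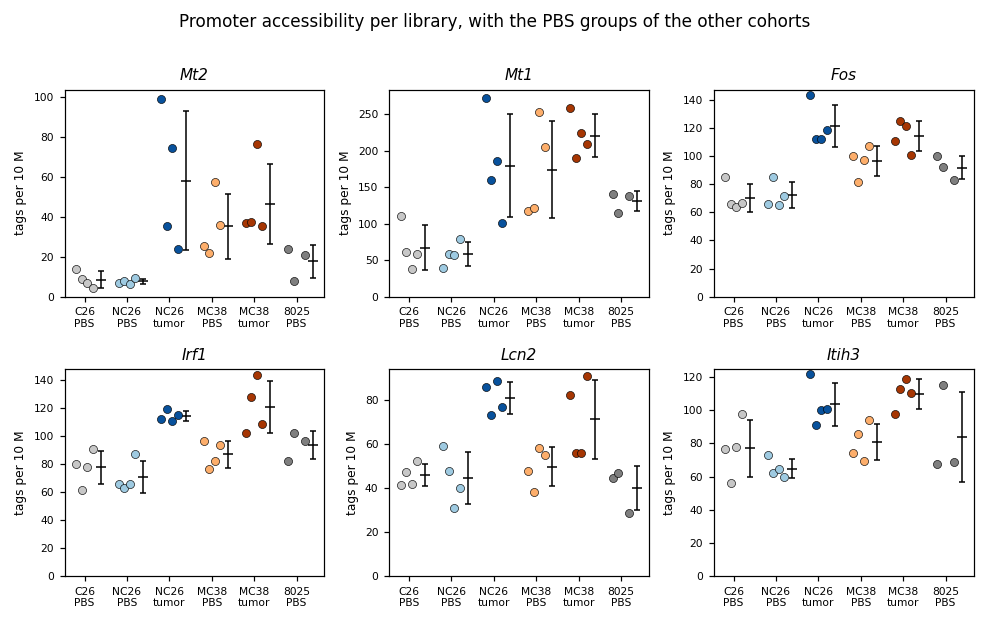
Scaled tags per 10 M at 6 promoters in the NC26 and MC38 libraries and in the PBS groups of the C26 (BALB/c) and 8025 (C57BL/6N) cohorts (points are animals, 4 per group and 3 in 8025 PBS; bars are mean and SD; axes start at 0). At Mt2 and Mt1 the NC26 controls lie below all 4 MC38 controls. Of the NC26 tumor libraries, replicates 2, 3 and 4 lie within the MC38 range at Mt2, and replicates 2 and 3 at Mt1. Replicate 1 lies above that range at both promoters, and replicate 4 lies below it at Mt1.

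Regions whose nearest start site was that of a gene of 20 lists, within 100 kb, were counted next. By number, the acute phase list had most regions past the threshold in NC26, where 0.178% of all regions passed. Of its 419 regions 6 rose and 1 fell in NC26, and 2 rose in MC38. Next were the IL-6, STAT3 and NF-kB genes, where 5 rose and 1 fell of 531 in NC26. In MC38 0 of these 531 passed, with 31 higher and 7 lower at unadjusted p under 0.05 (7.16%, against 6.31% of all regions). Of 278 metallothionein, zinc and iron regions, 3 rose and 1 fell in NC26. At unadjusted p under 0.05, 83 acute phase regions were higher and 20 lower in NC26 (24.6%, against 10.4% of all regions), and 72 and 6 in MC38 (18.6%, against 6.31%). The acute phase median was 0.11 in NC26 and 0.23 in MC38, above the medians of all regions (-0.04 and 0.02). In the main fit the median of its difference was -0.06, as over all regions (-0.06). Without NC26 tumor replicate 1 it was -0.08, against -0.02 over all regions. Acute phase members with the lowest p for the difference were Serpina3n (-1.60), Cp, which encodes the copper carrier ceruloplasmin (-2.05), and Mt2 (2.16), none past the threshold.

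The difference passed in 1 list, cholesterol synthesis and uptake, with the Hmgcs1 region alone among 334. In each of the other 19 lists 0 regions passed by limma, with 7 to 50 per list at unadjusted p under 0.05. The 7 were 2.76% of 254 integrated stress response regions and the 50 were 7.54% of 663 gluconeogenesis regions, against 6.66% of all regions. The insulin and IGF list had the highest share, 9.70% of 495. In these 19 lists edgeR called 0 for the difference and DESeq2 called 1 region. This was the Mt2 promoter, which is in both the acute phase and the metallothionein list. In the main fit the metabolic lists did not share a direction. The median of the difference was 0.01 for lipogenesis and for cholesterol genes and -0.07 for PPARalpha and fatty acid oxidation. Over all regions it was -0.06. Relative to all regions, lipogenesis stood at 0.17 in series A alone, -0.07 in series B alone and -0.02 without NC26 tumor replicate 1. Cholesterol genes stood at 0.17, -0.08 and 0.02 in these fits, so both lists changed side between the series. In the main fit the median of the difference was -0.15 for each of bile acid, xenobiotic, urea cycle and growth hormone lists and -0.14 for gluconeogenesis. In NC26 the medians of these 5 lists were -0.16, -0.14, -0.19, -0.10 and -0.13, against -0.04 over all regions, and in MC38 they lay between -0.05 and 0.03. Hepatocyte markers as a list had -0.14 for the difference. Mean promoter values of hepatocyte markers were 84.1 to 100.4 in the NC26 libraries and 110 to 125 in the MC38 libraries, controls and tumor mice alike, and their part in these medians was not tested. The distance from the all-region median stayed negative without NC26 tumor replicate 1 and with library totals for these 5 lists and the hepatocyte markers. In series A alone it was positive for urea cycle (0.01) and xenobiotic genes (0.05), and the cause was not tested. Members with the lowest p were Cyp8b1, the sterol 12-hydroxylase of bile acid synthesis (-0.90), Cyp2c29 (-1.59), Glul, the glutamine synthetase of hepatocytes around the central vein (-1.20), Igf1 (-2.06) and Klf9, a glucocorticoid-induced transcription factor (-1.45), none past the threshold.

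**Figure D5:**
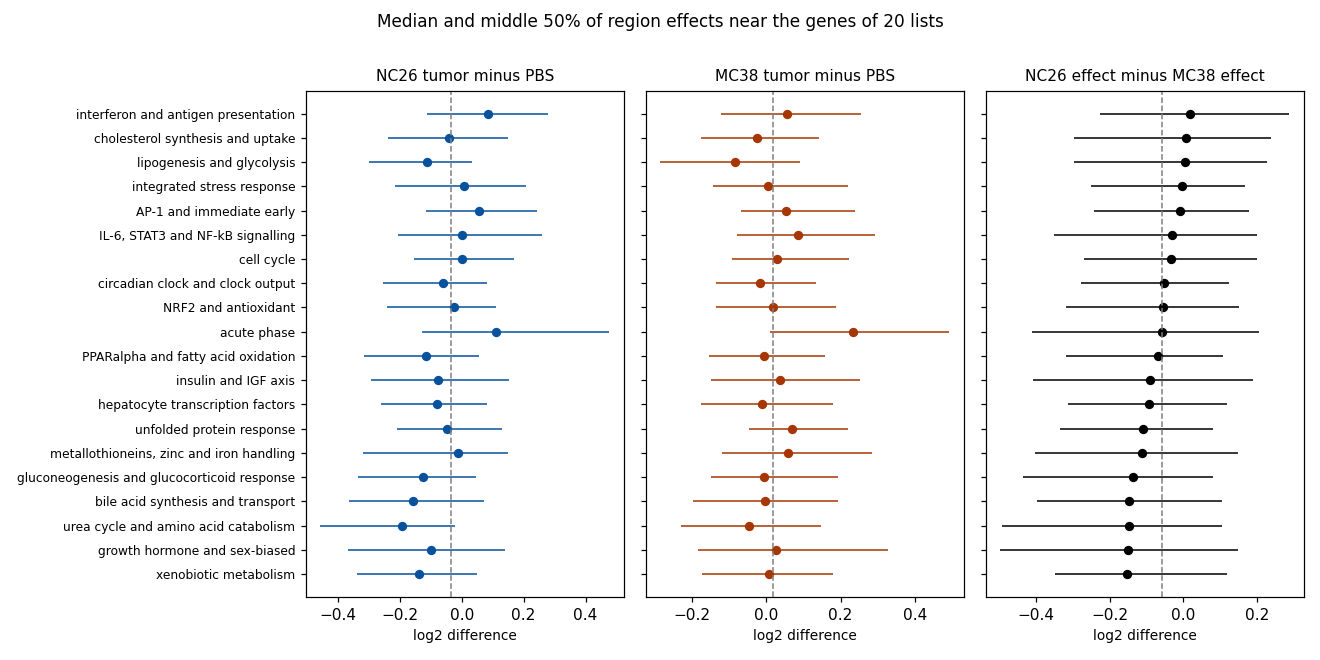
Median (point) and middle 50% (bar) of region effects in log2 for 20 gene lists, in NC26, in MC38 and for the difference, with the median of all regions as a dashed line; the 3 panels have their own horizontal scales. The acute phase list lies right of the line in both cohorts and on it for the difference. Without NC26 tumor replicate 1, which is not drawn, its median difference was -0.08, against -0.02 over all regions.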

How the data were processed

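Hepatocyte nuclei were profiled by ATAC-seq in 35 libraries, 1 per animal, 16 of them in the NC26 and MC38 cohorts, from about 25000 nuclei and 12 PCR cycles. Per the submitters' processing notes, the authors used BWA 0.7.5a-r405, SAMtools and HOMER on mm10. The signal values that the authors deposited count tags in windows of 400 bp on merged peaks, relative to 10 M tags, per the file headers. Multiplied by library totals, 100% of values were whole read ends within 0.05, each end being 0.5 tag. filterByExpr (minimum count 10, total 15) kept 177251 regions and removed 653. The main test was limma-trend (robust) on log2 of the TMM-scaled value plus 1, with 9 groups and library series as covariate over 35 libraries, and Benjamini-Hochberg adjustment at 0.05 over all regions. Such log2 differences understate changes of low regions. The procedure was tested on simulated data. Alternatives were other scalings, pseudocounts and filters, fewer libraries, weights, each series, edgeR, DESeq2 and leaving out each replicate.

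The comparison, gene lists, panel and naming rules were chosen with earlier results of these data known. Named regions for the difference were up to 12 per direction among those that passed with a level at or above the median, or, with under 6, the 6 with the lowest p as values. For each cohort they were the 4 largest rises and falls. One region per gene was kept, without predicted genes. List members named were those with the lowest p for the difference, at most 3 a list. Panel promoters that passed in no comparison but are named (Itih3, Lcn2, Saa1 and clock genes) were picked after their values were seen. Software was Python 3.11.15 with pandas 2.3.3 and matplotlib 3.10.9, and DESeq2 1.42.0, edgeR 4.0.16 and limma 3.58.1 in R 4.3.3.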

Additional observations from a re-analysis of the deposited data

Results flagged for a closer look

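The Hmgcs1 region differed between the cohorts by the test of the difference itself, at -2.23 log2 (limma, adjusted p = 0.0442, NC26 effect minus MC38 effect). It passed in only 12 of 33 alternatives and did not pass with edgeR.

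Over 53 named and panel regions in 4 groups of 4 libraries, 212 sets of values were searched for 1 library far from the other 3, and 14 held one. Chance alone gives about 1 in 20. All values are scaled tags. In NC26, Atg4c was high in tumor replicate 1 (21.4, others 7.02 to 8.98), Prune1 in tumor replicate 4 (62.3, others 26.8 to 28.1), Lbp in PBS replicate 3 (169, others 126 to 133) and Irf1 in PBS replicate 4 (87.3, others 62.5 to 65.9). In MC38 controls, replicate 1 stood apart at Tmem51os1 (69.8) and Fasn (217), and replicate 3 at Gcnt7 (84.2, others 55.5 to 56.9). In MC38 tumor mice, replicate 2 was low at Gcnt7 (51.4, others 95.6 to 98.5) and Map9 (17.2), replicate 1 stood apart at Nr1d1 (247), Nr1d2 (574) and Ddit4 (362), and replicate 3 was high at Mt2 (76.5, others 35.3 to 37.4) and Me1 (221, others 100.04 to 118).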

How the results depend on the processing

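No named or panel region with a passed effect reversed its sign under any alternative run. The alternatives reuse the libraries in which these effects passed, so the kept signs are not separate support. The number of regions that passed for the difference (1) was 0 with library totals, a pseudocount of 0.5, only the 16 libraries, no library series, array weights, promoter share as covariate and edgeR, 3 with cyclic loess, 4 in series A, 18 in series B and 19 with DESeq2. In NC26 (315) it was 108 with only the 16 libraries, 134 with array weights, 138 in series A (31 higher and 107 lower) and 145 with edgeR. In MC38 (34) it was 0 with only the 16 libraries (8500 at unadjusted p under 0.05), 62 with array weights, 11 with promoter share, 16 in series A, 8 in series B and 251 with DESeq2. Within 1 series most calls of the main fit did not pass. The Hmgcs1 difference passed in neither series alone. Of the 243 NC26 rises, 18 passed in series A and 86 in series B. Of the 72 NC26 falls these were 12 and 3, and of the 33 MC38 rises 3 and 1. Leaving out 1 library gave 0 to 11 for the difference (11 without NC26 tumor replicate 2), 77 (without NC26 tumor replicate 1) to 1148 (without NC26 tumor replicate 2) in NC26 and 8 (without MC38 tumor replicate 4) to 74 (without NC26 tumor replicate 1) in MC38. NC26 also had 127, 168 and 150 without PBS replicates 1, 2 and 3 and 475 without tumor replicate 3, and MC38 69, 16 and 19 without PBS replicates 1, 2 and 4, 67, 10 and 20 without tumor replicates 1, 2 and 3 and 59 without NC26 tumor replicate 2. Leaving out NC26 tumor replicate 1 and using only the 2 cohorts, chosen after seeing the data, gave 0, 46 and 18. The cause was not tested.

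With the replicate number as a block the counts were 0, 105 and 2. Same-numbered PBS and tumor libraries shared deviations with correlations of -0.23 to 0.12. Of the tumor libraries, 3 of 4 in NC26 and 0 of 4 in MC38 correlated best with their own number. These correlations cannot decide whether the numbers pair animals. Of the effects of named and panel regions that passed, 16 in NC26 failed the threshold in 100 of 528 alternative values, 7 in MC38 in 50 of 231 and the Hmgcs1 difference in 21 of 33. Shallow regions rest on few read ends, and how much of the spread between animals is counting error was not tested.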
